A study of Mus musculus with 6 samples.

Results

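Intermediate filaments are ropes of rod-shaped proteins that give a cell its mechanical strength, and which proteins build them depends on the cell type and its state. The expression of 8 of their genes was described here in sham-operated and injured mouse spinal cord. They were chosen by gene symbol, of 36629 genes in the authors' tables, and all 8 had a value. The glial members are Gfap, Vim, Nes and Synm, and the neuronal members are Nefl, Nefm, Nefh and Ina. The 6 libraries came from C57/BL6 mice, stated to be 3 to 5 weeks old. The sham group (3 libraries) had only a laminectomy, in which the bone over the cord was removed at T9 and T10. The 3 libraries of the spinal cord injury group (SCI) came from mice that also had a crush of the exposed cord lasting 5 seconds with a vascular clip of 60 g force. In both groups the cord from T8 to T12 was taken 3 days after surgery. The labels state an anaesthetic for both groups and no other drug, and no transgene. The labels number the libraries within a group but do not say whether each came from 1 animal or from a pool, so p-values measure only the spread between these libraries, which may be technical.

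Astrocytes, the star-shaped support cells of the cord, build their filaments mainly from GFAP together with vimentin, and reactive astrocytes are known for making more of both. Nestin is the filament protein of neural progenitors and returns in reactive glia and growing vessels, and synemin is a large partner protein that joins vimentin and desmin filaments. In neurons the light, medium and heavy neurofilament proteins (Nefl, Nefm, Nefh) and alpha-internexin (Ina) assemble together and set the calibre of axons. Their messenger RNA lies mostly in the cell body, so a piece of cord reports the neurons whose bodies are in it and not the long axons that pass through.

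Values are the authors' FPKM, which count a library's fragments per kilobase of a gene's length, scaled for the size of the library. Since they are per length they can be compared between genes. Their depth is unknown, because FPKM hold no counts. A log2 change is the mean of log2(FPKM + 1) in SCI less that in sham, and SE is its standard error in limma. The added 1 makes it understate changes of low genes. A gene was called where limma's p, adjusted over the 17435 genes tested, was under 0.05. By that rule 57.5% of all genes tested were called, 26.7% higher and 30.8% lower in SCI, and for 67.6% the groups did not overlap. More genes were called lower than higher, and this balance turned under median-ratio scaling (5271 higher and 4940 lower). It also turned without sham replicate 1 (4218 higher and 4136 lower) and, barely, without sham replicate 3 (4178 and 4177). A call alone therefore sets no gene apart in these data, and the sizes and library values carry the description. The 4 haemoglobin genes took from 0.109% to 0.126% of the FPKM of the sham libraries and 0.656%, 6.16% and 0.211% of SCI replicates 1, 2 and 3. FPKM are relative within a library, so a gene with a larger share pushes the rest down. All 12 neuronal, 13 astrocyte and 8 oligodendrocyte genes listed passed the filter on low values. So did all 8 peripheral nerve and 8 fibroblast genes and 6 of 8 muscle genes, so passing it does not check the tissue label.

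All 8 members passed the filter of at least 1 FPKM in at least 3 libraries. Of the 8, 7 were called, beside 57.5% of all genes tested. Of the glial members 3 of 4 rose and Synm was not called, and of the neuronal members 4 of 4 fell. For the 7 called genes no SCI library overlapped a sham library, which in all genes tested was so for 30.7% with SCI higher and 36.9% with SCI lower. The median change was 2.56 over the 4 glial members and −1.62 over the 4 neuronal ones, beside −0.076 over all genes tested. In a piece of tissue, fewer cells of a type and less RNA per cell cannot be told apart.

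**Figure D1:**
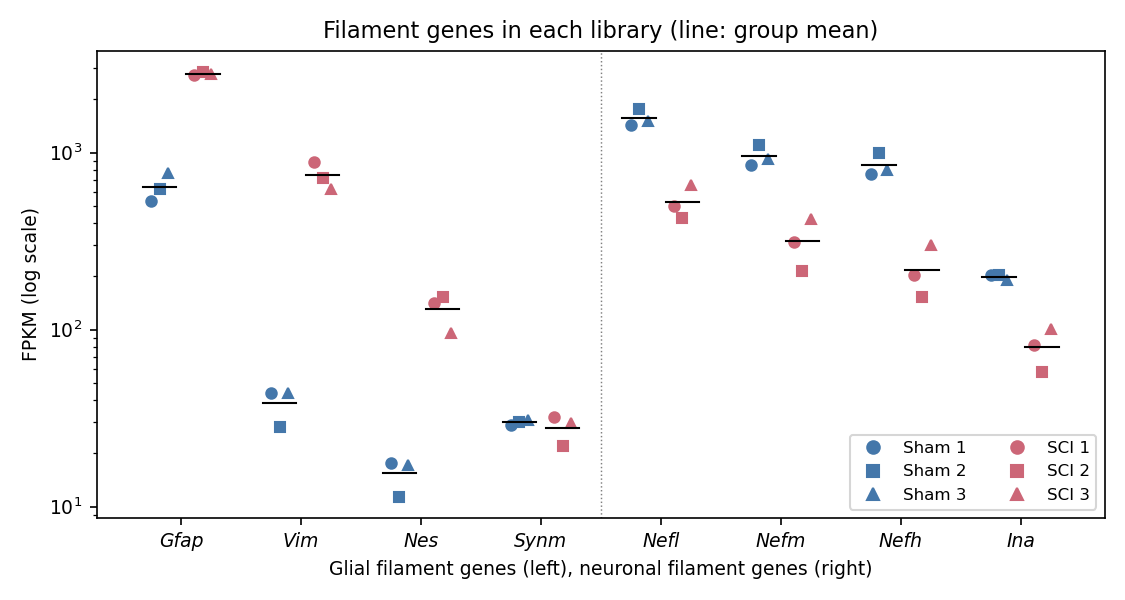
FPKM of each filament gene (log axis) in each of the 6 libraries, with blue for sham, red for SCI, a marker shape for each replicate and a black line for the group mean. Gfap, Vim and Nes lie higher in every SCI library, the 4 neuronal genes lie lower, and Synm overlaps.

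The members also differ in gene structure. Exon and codon counts were taken from GENCODE M21 on GRCm38, and the gene positions given are the authors' own. GENCODE M21 had the same position for most genes, but among the members for only 6. The principal transcripts of Gfap and Vim have 9 exons, and those of Nes, Synm, Nefl and Nefh have 4, and those of Nefm and Ina 3. The coding lengths run from 430 codons in Gfap and 466 in Vim to 1090 in Nefh, 1561 in Synm and 1864 in Nes. Gfap (ENSMUSG00000020932) lies at chr11:102887336-102897200 and Nefh (ENSMUSG00000020396) at chr11:4938754-4948064, both on the minus strand. Vim (ENSMUSG00000026728) lies at chr2:13573927-13582826 and Nes (ENSMUSG00000004891) at chr3:87971078-87980451, both on the plus strand. Synm (ENSMUSG00000030554) lies at chr7:67730160-67759693 on the minus strand, and Ina (ENSMUSG00000034336) at chr19:47014698-47025327 on the plus strand.

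Nefl (ENSMUSG00000022055, chr14:68083863-68089095, plus strand) lies inside the longest span of Nefm (ENSMUSG00000022054, chr14:68082590-68124846, minus strand). The annotated exons of the 2 genes share 1108 bases on opposite strands, of 3380 exon bases in Nefl and 5782 in Nefm. The libraries were made to keep the strand, but the strand setting used in counting is not given in the sources used here, so reads of this stretch may have been assigned to either gene. Synm shares 84 exon bases with Ttc23 on the opposite strand, a gene at a mean of 1.61 FPKM.

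For 5 of the 8 members RefSeq (GRCm38.p6) gave a promoter window: Gfap, Vim, Nes, Synm and Ina. The bases before the annotated start, outside any annotated exon of the gene, are shown for the glial genes Gfap and Nes, which rose, and for the neuronal gene Ina, which fell. The window of Vim lay wholly within annotated exons, and that of Synm, which was not called, is not shown. The windows shown lie on the minus strand at chr11:102897201-102897450 (Gfap), and on the plus strand at chr3:87970843-87971077 (Nes) and chr19:47014431-47014680 (Ina), and are written 5′ to 3′ along the gene. Capitals mark the GC box GGGCGG, the letters bound by Sp1, on either strand.
Gfap: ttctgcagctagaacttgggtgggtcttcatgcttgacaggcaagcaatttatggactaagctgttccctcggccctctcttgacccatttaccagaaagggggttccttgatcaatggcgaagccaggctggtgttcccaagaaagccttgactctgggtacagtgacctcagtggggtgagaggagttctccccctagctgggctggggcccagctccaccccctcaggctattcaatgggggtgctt
Nes: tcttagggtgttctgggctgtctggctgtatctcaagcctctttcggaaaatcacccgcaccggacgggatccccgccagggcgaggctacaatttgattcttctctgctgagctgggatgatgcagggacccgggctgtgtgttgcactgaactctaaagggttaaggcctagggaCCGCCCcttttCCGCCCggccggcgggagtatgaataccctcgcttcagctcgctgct
Ina: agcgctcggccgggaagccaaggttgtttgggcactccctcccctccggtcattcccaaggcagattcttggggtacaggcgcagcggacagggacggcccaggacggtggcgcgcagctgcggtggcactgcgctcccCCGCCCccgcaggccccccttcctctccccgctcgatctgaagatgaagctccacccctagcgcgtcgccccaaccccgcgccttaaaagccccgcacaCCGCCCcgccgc
Nes and Ina each held 2 such boxes and Gfap none, and 32.7% of 32851 promoter windows of 250 bases held at least 1. The TATA box letters TATAAA were in none of the 3 and in 12.4% of all windows. The STAT letters TTCNNNGAA were also in none of the 3 and in 7.02% of all windows, and the AP-1 letters TGANTCA in none and in 6.75%. The CCAAT box, CCAAT, was in none of the 3 and in 33.8%, and the E-box, CANNTG, was in that of Ina alone of the 3 and in 66.2% of all windows. The window of Synm held 1 CCAAT box and 1 E-box and none of the other letters searched. Both strands were searched, and no match says only that these letters are not in this window. The windows of Gfap, Nes and Ina were 55.6%, 58.7% and 70.8% G or C.

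Vimentin (Vim) had the largest change of the 8. It was at 43.9, 28.0 and 44 FPKM in sham replicates 1, 2 and 3, and at 883, 718 and 626 in SCI replicates 1, 2 and 3. The lowest SCI library thus stood far above the highest sham library, and sham replicate 2 was the lowest of all. The means were 38.6 ± 9.22 and 742 ± 130.5 (SD, n = 3 per group), a 19.2-fold rise. The log2 change was 4.24 (SE 0.20, limma adjusted p = 1.3e-05), rank 41 from the highest of the 17435 genes.

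Nestin (Nes) was at 17.7, 11.4 and 17.2 FPKM in the sham libraries and at 141, 154 and 95.5 in SCI replicates 1, 2 and 3. Sham replicate 2 was again the lowest of its group, and SCI replicate 3 was the lowest of the injured. The means of 15.4 ± 3.53 and 130.1 ± 30.6 (SD, n = 3 per group) differed 8.42-fold. On the log2 scale the rise was 2.99 (SE 0.22, limma adjusted p = 6.8e-05).

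Gfap, the marker protein of astrocytes, was at 535, 623 and 764 FPKM in sham replicates 1, 2 and 3, and at 2727, 2850.1 and 2766 in SCI replicates 1, 2 and 3. It was already abundant in sham cord, and its SCI libraries lay closer together than its sham libraries. The ratio of the means was 4.34, and the log2 change was 2.13 (SE 0.14, limma adjusted p = 3.8e-05). By size of change Gfap ranked 540 from the highest, behind Vim and Nes (rank 184).

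Synemin (Synm) was at 28.8, 30.2 and 30.8 FPKM in the sham libraries and at 32.0, 22.1 and 29.8 in SCI replicates 1, 2 and 3. The groups overlapped, with the lowest and the highest of all 6 values in SCI libraries. The log2 change was −0.11 (SE 0.14, 95% interval −0.43 to 0.21, limma adjusted p = 0.51). Without SCI replicate 2 it was 0.045 (adjusted p = 0.58). That interval leaves out changes of the size seen for the other 3 glial members.

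Among the neuronal genes, Nefl encodes the light subunit, on which neurofilament assembly depends. It was at 1437, 1770.1 and 1497 FPKM in sham replicates 1, 2 and 3, and at 500.3, 429 and 652 in SCI replicates 1, 2 and 3. It was the most abundant of the 8 in every sham library. It fell by 1.59 on the log2 scale (SE 0.16, limma adjusted p = 2.8e-04), with means of 1568 ± 178 and 527 ± 114 (SD, n = 3 per group).

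Nefm, the medium subunit, was at 854, 1103 and 925 FPKM in the sham libraries and at 312, 215 and 422 in SCI replicates 1, 2 and 3. The 2 groups were well apart, and the log2 change was −1.64 (SE 0.23, limma adjusted p = 0.0011).

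Nefh, the heavy subunit of large, myelinated axons, was at 757, 996 and 792 FPKM in the sham libraries and at 202, 153 and 299.6 in SCI replicates 1, 2 and 3. It had the largest fall of the 8, of 3.89-fold in the means. The log2 change was −2.00 (SE 0.24, limma adjusted p = 4.9e-04), rank 29 from the lowest of all genes tested.

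Ina, the fourth neuronal subunit and an early one in development, was at 204, 204 and 189 FPKM in the sham libraries and at 82.1, 57.5 and 100.4 in SCI replicates 1, 2 and 3. Its sham libraries differed little. The log2 change was −1.34 (SE 0.18, limma adjusted p = 9.7e-04), the smallest of the 4 neuronal falls.

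The order of the 8 levels differed between the groups. In sham cord the means ran from Nefl through Nefm, Nefh, Gfap, Ina, Vim and Synm to Nes. Of neighbours in that order, the libraries of Nefm and Nefh overlapped, as did those of Nefh and Gfap, and those of Vim and Synm. In SCI cord the means ran from Gfap through Vim, Nefl, Nefm, Nefh, Nes and Ina to Synm. There the libraries of Vim and Nefl overlapped, as did those of Nefm and Nefh, of Nefh and Nes, and of Nes and Ina. Nes thus went from the lowest place to one above Ina in the means.

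The 8 genes together were at 3876, 4767 and 4259 FPKM in the sham libraries and at 4880.2, 4598 and 4992 in the SCI libraries, so their summed level overlapped between the groups. Its make-up did not. The 4 glial genes made up 16.1%, 14.5% and 20.1% of that sum in sham replicates 1, 2 and 3, and 77.5%, 81.4% and 70.5% in SCI replicates 1, 2 and 3. Gfap alone went from a mean share of 14.9% to 57.8%, and Vim from 0.917% to 15.4%. The share of Nefl went from 36.5% to 10.9%.

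**Figure D2:**
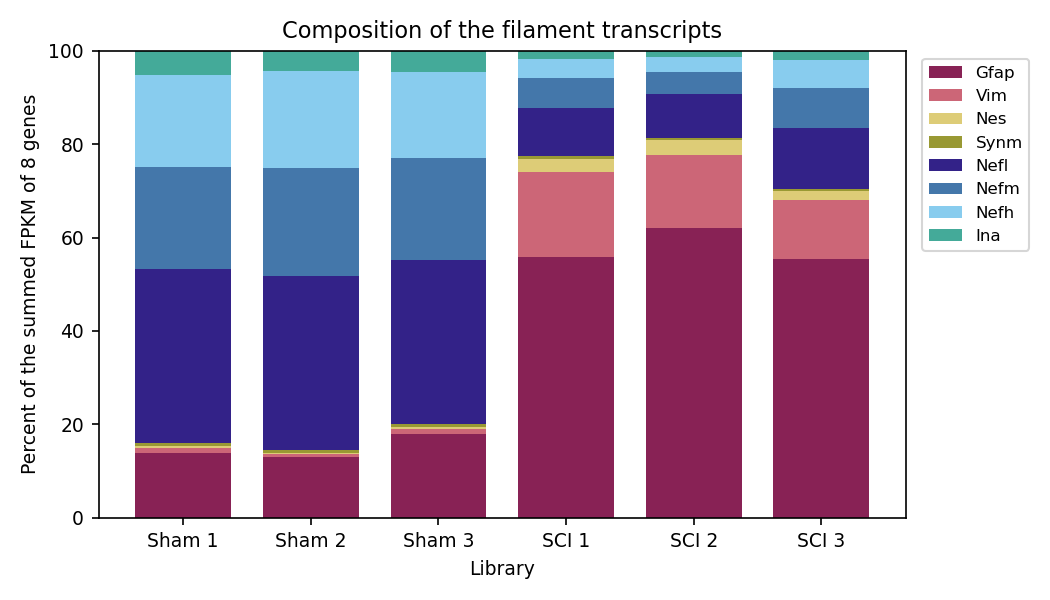
Stacked bars give each gene's percent of the summed FPKM of the 8 filament genes, for each library. The 4 neuronal genes hold from 79.9% to 85.5% in sham libraries and from 18.6% to 29.5% in SCI libraries.

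Ratios between 2 genes of 1 library do not depend on how that library was scaled. For 6 pairs of genes such ratios were compared with an exact two-sided permutation test over libraries, in which 3 against 3 cannot go below p = 0.1, so none could pass after adjustment. For every 100 FPKM of Gfap, Vim was at 8.21, 4.49 and 5.76 in sham replicates 1, 2 and 3 and at 32.4, 25.2 and 22.6 in SCI replicates 1, 2 and 3. Each SCI library thus held more vimentin transcript per GFAP transcript than any sham library, a log2 difference of 2.11 (exact permutation p = 0.1, adjusted over the 6 ratios 0.2). Synm moved against Gfap by −2.24 on that scale, also with no overlap (exact permutation p = 0.1, adjusted 0.2). Per 100 FPKM of Gfap, Nes was at 3.31, 1.83 and 2.26 in the sham libraries and at 5.18, 5.39 and 3.45 in SCI replicates 1, 2 and 3. Sham replicate 1 and SCI replicate 3 were close, and they overlapped once 1 FPKM was added for the test (log2 difference 0.86, exact permutation p = 0.2, adjusted 0.24).

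Within the neurofilament genes, Nefh stood lower beside Nefl in every SCI library than in any sham library. For every 100 FPKM of Nefl, Nefh was at 52.7, 56.3 and 52.9 in the sham libraries and at 40.4, 35.7 and 45.9 in SCI replicates 1, 2 and 3. The log2 ratio differed by −0.41 without overlap (exact permutation p = 0.1, adjusted 0.2). Nefm stood at 59.4, 62.3 and 61.8 per 100 of Nefl in the sham libraries and at 62.4, 50 and 64.8 in the SCI libraries. These overlapped, with a log2 difference of −0.058 that was 0.057 without SCI replicate 2 (exact permutation p = 1 with all libraries). Ina stood at 14.2, 11.5 and 12.7 per 100 of Nefl in the sham libraries and at 16.4, 13.4 and 15.4 in the SCI libraries, which also overlapped (log2 difference 0.25, exact permutation p = 0.2, adjusted 0.24). Of the summed light, medium and heavy transcripts, Nefh was 25.1% ± 0.591 in sham and 20.3% ± 1.34 in SCI libraries (SD, n = 3 per group).

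**Figure D3:**
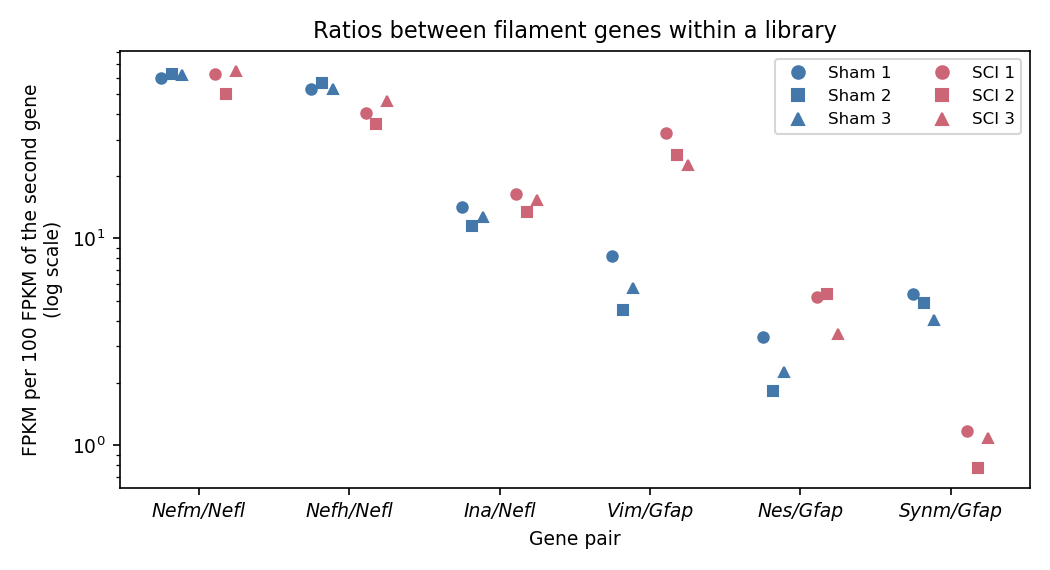
FPKM of the first gene per 100 FPKM of the second (log axis), in each library, for 6 gene pairs. Vim per Gfap is higher, and Nefh per Nefl and Synm per Gfap are lower, in all 3 SCI libraries, while Nefm per Nefl overlaps.

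Each member was then set against other genes of the cell known to make it. The reference of the neuronal members was the mean log2(FPKM + 1) of 12 pan-neuronal genes, among them Rbfox3, Snap25 and Syp, of which 11 fell and Gap43, a gene of growing axons, rose (its call ended without sham replicate 2 and SCI replicate 3 together). The reference of the glial members was that of 13 astrocyte genes, among them Slc1a2, Aqp4 and Aldh1l1, of which 10 fell and 3 rose. Without sham replicate 2, 9 of the neuronal and 8 of the astrocyte genes were called lower. The astrocyte count was 9 without SCI replicate 2, and 9 without sham replicate 2 and SCI replicate 3 together. Among all genes tested 30.8% fell and 26.7% rose. From sham to SCI the neuronal reference moved by −0.91 and the astrocyte reference by −0.35. Relative to that reference, the difference between SCI and sham was −0.67 for Nefl, −0.73 for Nefm, −1.09 for Nefh and −0.43 for Ina, each with no overlap between groups (exact permutation p = 0.1, adjusted over the 8 members 0.114). With the median level of the reference genes in each library in place of their mean the differences were −1.22, −1.28, −1.63 and −0.97. The genes in the middle were Syn1 and Stmn2 in sham libraries, and Stmn2 with Thy1 or Syp in SCI libraries. These larger values thus compare with different genes in the groups, and the median of the reference genes' own changes was −1.09. The 11 reference genes that fell had changes from −0.65 to −1.34, so the falls of Nefl, Nefm and Nefh lay beyond that range and that of Ina lay just inside it. No test was made of that placing.

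Relative to the astrocyte reference, the difference was 2.48 for Gfap, 4.59 for Vim and 3.34 for Nes, with no overlap (exact permutation p = 0.1, adjusted 0.114). Synm stood 0.24 higher against this reference, with overlap (exact permutation p = 0.3, adjusted 0.3), and 0.72 higher with the median level in place of the mean (exact permutation p = 0.1). That median level was Ntsr2, which fell by 1.67, in every sham library and Aldh1l1, which rose, in every SCI library. The value of 0.72 thus compares Synm with different genes in the groups, and the median of the astrocyte genes' own changes was −0.48. In SCI libraries Gfap exceeded the mean of the astrocyte genes by 4.66, 4.75 and 4.59, and in sham libraries by 1.87, 2.24 and 2.44. The astrocyte genes moved in both directions. The 3 that rose were Aldh1l1, a folate enzyme, by 1.05, Sox9, a transcription factor, by 0.82 and Aqp4, a water channel, by 0.65. Among the 10 that fell, Slc1a2, the main glutamate transporter, changed by −0.88 and Aldoc, a glycolytic enzyme, by −0.99.

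**Figure D4:**
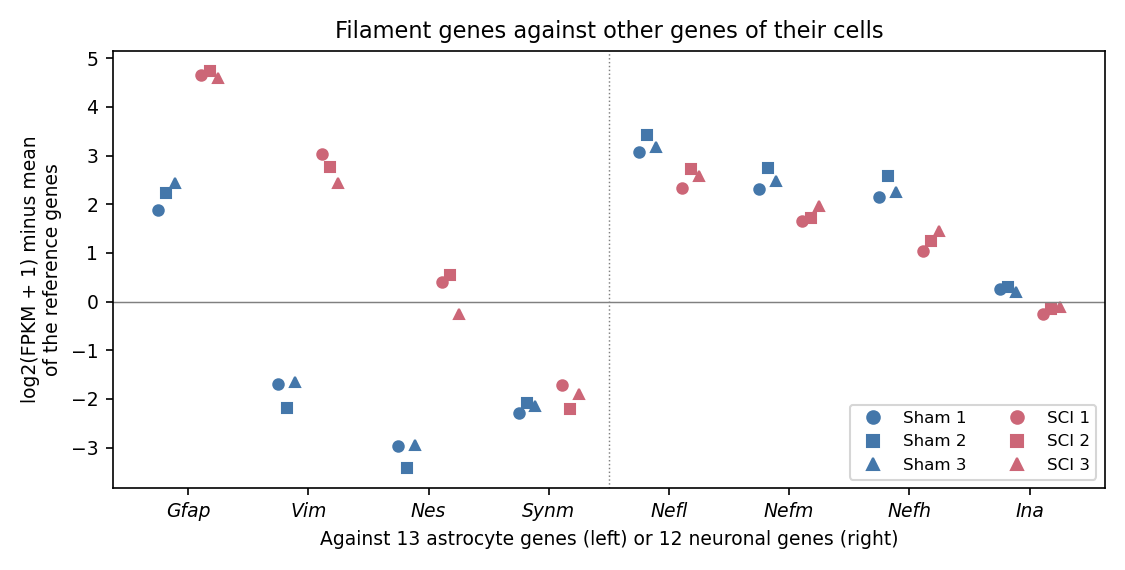
For each library, log2(FPKM + 1) of a filament gene minus the mean of 13 astrocyte genes (glial members) or of 12 neuronal genes (neuronal members), where 0 is the mean of the reference. Gfap, Vim and Nes are higher and the 4 neuronal genes lower in all 3 SCI libraries.

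Vimentin and nestin are not made by astrocytes alone, and markers of other cells that can contain them differed in direction between lists. Beside the counts below, 26.7% of all genes tested were called higher and 30.8% lower. All 10 macrophage and microglia genes rose, and their summed level ran from 175 to 221 FPKM in sham cord and from 1623 to 2560.1 in injured cord. Without sham replicate 2 and SCI replicate 3 together, 9 of the 10 were called. All 8 fibroblast genes rose, with sums of 62.2 to 129 and 529 to 975 FPKM. Those called numbered 7 without sham replicate 2 (alone or together with SCI replicate 3) and 7 without SCI replicate 2. Of 11 endothelial and mural genes 8 rose and 1 fell, with sums of 207 to 214 and 462 to 559. Of 8 ependymal genes, which mark the cells lining the central canal, 4 fell and none rose. Of 13 genes of neural progenitors and division 7 rose and 3 fell (1 fell without sham replicate 2 and SCI replicate 3 together). Top2a, an enzyme of dividing cells, was at 0.443 ± 0.0416 FPKM in sham and 31.9 ± 6.21 in SCI libraries (SD, n = 3 per group). Among the SCI libraries, Vim and the endothelial and mural sum (559, 513 and 462 FPKM in replicates 1, 2 and 3) were both highest in replicate 1 and lowest in replicate 3. Nes and the macrophage and fibroblast sums were highest in SCI replicate 2. Their part in the rise of Vim and Nes was not tested.

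In the sham group, replicate 2 stood apart for Vim and Nes, and it had the lowest peripheral nerve and fibroblast markers as well. The 8 genes of Schwann cells and peripheral nerve summed to 2215, 847 and 2228 FPKM in sham replicates 1, 2 and 3, and the fibroblast genes to 129, 62.2 and 123. The 3 neurofilament subunit genes were highest in that library. In the injured group, SCI replicate 3 held genes of sensory ganglion neurons and of muscle. Scn10a, a sodium channel of pain-sensing neurons, was at 6.60 FPKM there and listed at 0 in the other 5 libraries. All 10 sensory ganglion genes were highest of the SCI libraries in replicate 3, with sums of 36.8, 33.6 and 122 in SCI replicates 1, 2 and 3 and of 62.2 to 72.4 in sham. Of these genes 4 were tested and none was called, and 2 fell without SCI replicate 3. Sensory ganglion neurons also make neurofilaments, and the 4 neuronal members were highest of the SCI libraries in replicate 3. SCI replicate 2 had the lowest value of all 4, and the largest haemoglobin, macrophage and fibroblast sums. Without SCI replicate 2 the changes were −1.45 for Nefl, −1.39 for Nefm, −1.77 for Nefh and −1.12 for Ina. Without SCI replicate 3 and sham replicate 2 together, a choice made after these values were seen, the changes were 4.15 for Vim, 3.00 for Nes and 2.12 for Gfap. They were −1.66 for Nefl, −1.78 for Nefm, −2.13 for Nefh and −1.50 for Ina, and the same 7 genes were called (limma adjusted p of 0.0034 or less).

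**Figure D5:**
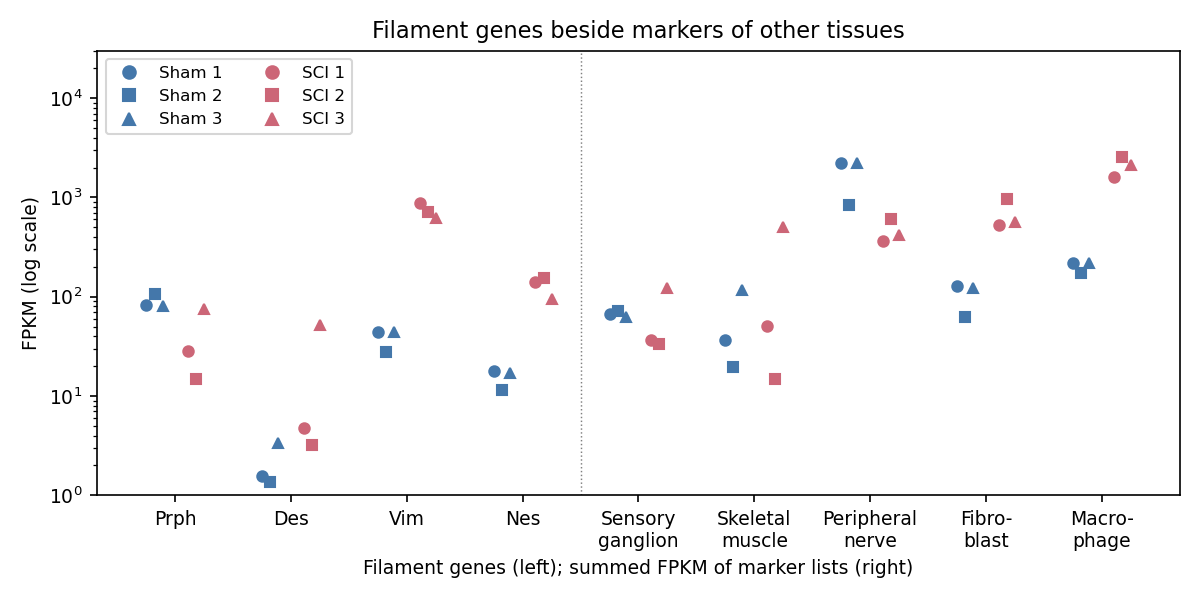
FPKM (log axis) of 4 filament genes and summed FPKM of 5 marker lists in each library. SCI replicate 3 (red triangle) stands high for Prph, Des, sensory ganglion and muscle genes, and sham replicate 2 (blue square) stands low for Vim, Nes, peripheral nerve and fibroblast genes. The muscle sum includes Des.

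The related filament genes Prph and Des were also highest of the SCI libraries in replicate 3. Prph encodes peripherin, the filament protein of motor, autonomic and sensory neurons. It was at 81.8, 105.8 and 81.0 FPKM in the sham libraries and at 28.7, 14.9 and 74.5 in SCI replicates 1, 2 and 3. The groups did not overlap, yet SCI replicate 3 came close to sham. The log2 change was −1.45 (SE 0.50, limma adjusted p = 0.039), and −2.05 without SCI replicate 3 (limma adjusted p = 0.0012). The call ended without any 1 of the other 5 libraries: the change was then −1.51, −1.32 and −1.51 without sham replicates 1, 2 and 3, and −1.37 and −0.92 without SCI replicates 1 and 2. It also ended when genes of low level were kept in the test (−1.45, adjusted p = 0.096). Des, the desmin of muscle and vessel walls, was at 1.58, 1.35 and 3.39 FPKM in the sham libraries and at 4.82, 3.20 and 51.7 in those of the injured group. It was not called (log2 change 1.87, limma adjusted p = 0.11), and its change was 0.73 without SCI replicate 3. It was called without SCI replicate 2 (2.55, adjusted p = 0.046) and with the replicate number as a block (1.87, adjusted p = 0.033). The list of skeletal muscle genes includes Des. It summed to 504 FPKM in SCI replicate 3, against 14.7 and 50.6 in the other SCI libraries and 19.5 to 116 in sham. All 8 genes of the list were highest of the SCI libraries in replicate 3, and the part of muscle in the values of Des was not tested.

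Motor neurons, whose thick axons are rich in neurofilament, had 6 of 8 listed genes lower and none higher, with a median change of −1.84 that included Prph. Over all genes tested 30.8% were called lower. The count was 5 without sham replicate 2, 5 without SCI replicate 2 and 7 without SCI replicate 3. Isl1 and Calca, which were not called, are also in the list of sensory ganglion neurons. Chat, the enzyme that makes acetylcholine, changed by −2.23 (SE 0.17, limma adjusted p = 7.2e-05).

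Other filament genes moved in both directions. Of 15 other cytoplasmic filament genes listed, 8 were abundant enough to test, and 3 rose and 3 fell. Among all genes tested 26.7% rose and 30.8% fell. Without SCI replicate 2, 5 rose and 2 fell. Krt222, a keratin-like gene, went from 39.7 ± 4.0 to 14.7 ± 4.10 FPKM (SD, n = 3 per group), a log2 change of −1.41 (SE 0.20, limma adjusted p = 0.0010). The keratins Krt19 and Krt80 were called higher but reached at most 1.48 FPKM.

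The nuclear lamins, intermediate filaments under the nuclear envelope, rose with their partners. All 7 listed genes were called higher, with a median of 1.04, where 26.7% of all genes tested were. Lmnb1, a B-type lamin, went from 6.06 ± 0.442 to 33.3 ± 6.50 FPKM, and Lmna, which encodes lamins A and C, from 15.7 ± 1.49 to 50.2 ± 3.59 (SD, n = 3 per group). The log2 changes were 2.27 for Lmnb1 and 1.61 for Lmna, against 0.47 for Lmnb2, the other B-type lamin.

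Genes whose products bind or fold filaments were mixed. Of 13 linker and chaperone genes 10 were tested, and 2 rose and 4 fell (2 fell without sham replicate 2). The shares over all genes tested were 26.7% higher and 30.8% lower. Hspb1, a small heat shock protein that associates with filaments, was at 42.1, 38.7 and 26.7 FPKM in the sham libraries and at 534, 332 and 393 in SCI replicates 1, 2 and 3. It was thus 11.7-fold higher in SCI, with no overlap (log2 change 3.51, SE 0.22, limma adjusted p = 3.3e-05). Plec, which encodes plectin, a cross-linker of filaments to other cell structures, rose by 0.44 (limma adjusted p = 0.0030). Cryab, a related chaperone that binds GFAP and vimentin, was at 337 ± 19.5 and 384 ± 27.7 FPKM (SD, n = 3 per group) and was not called (0.19, adjusted p = 0.10). It was called without SCI replicate 2 (0.24, adjusted p = 0.032) and under median-ratio scaling (0.27, adjusted p = 0.012).

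Of 24 genes for kinases, phosphatases, proteases and other enzymes that act on filaments, 7 rose and 14 fell. Over all genes tested, 26.7% were called higher and 30.8% lower. Aurkb, a mitotic kinase that phosphorylates vimentin and GFAP in dividing cells, went from 0.143 ± 0.169 to 14.5 ± 3.19 FPKM (SD, n = 3 per group). Cdk5, a neuronal kinase that phosphorylates the neurofilament tails, changed by −0.68, and its activators Cdk5r1 and Cdk5r2 by −1.16 and −1.05. Capn2, a calcium-activated protease that cuts neurofilaments, rose by 0.63. Of 14 genes of axonal transport and microtubules 12 fell and none rose, with a median of −0.68. Tubb3, the neuronal tubulin, was not called (−0.59, limma adjusted p = 0.051). It was called without SCI replicate 2 (−0.33), without SCI replicate 3 (−0.81) and without both SCI replicate 3 and sham replicate 2 (−0.78). It was also called under quantile normalization (−0.61) and after rescaling without mitochondrial and haemoglobin genes (−0.60). Kif5a, the motor that carries neurofilaments along axons, changed by −0.95 (SE 0.09, limma adjusted p = 1.5e-04), a smaller fall than those of the 4 neuronal filament genes, though this difference was not tested.

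Of 19 regulators that act on the glial filament genes or in reactive glia 14 rose and 4 fell (13 and 1 without sham replicate 2). Among all genes tested 26.7% rose and 30.8% fell. Stat3, a transcription factor known to act on Gfap in astrocytes, went from 19.5 ± 0.350 to 49.2 ± 1.89 FPKM (SD, n = 3 per group), a log2 change of 1.29. Osmr, a receptor that signals to it, rose by 2.14, and Socs3, its feedback inhibitor, by 4.25. Cntfr, another receptor upstream of it, changed by −1.08.

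The genes whose profile over the 6 libraries lay closest to each member were found among 11841 other genes with a mean of at least 5 FPKM. The measure was the root mean square difference of log2(FPKM + 1) after each gene's mean was subtracted, given as a description. Vim lay nearest S100a11 (0.17) and S100a6 (0.19), calcium-binding proteins, and Nes nearest Glipr2 (0.085) and Fxyd5 (0.13). Gfap lay nearest Ptgr1 (0.10) and Kcnk6 (0.12), which were far lower genes, with means of 2.20 and 1.54 FPKM in sham libraries. In SCI libraries their means were 12.95 and 8.97 FPKM. Their closeness to Gfap depended on the added 1: with 0.1 added their log2 changes were 2.56 and 2.47, against 2.13 for Gfap. Nefl lay nearest Necab3 (0.063) and Esrrg (0.076), and Nefm nearest Scn4b, a sodium channel subunit (0.075), and Rimkla (0.077). Nefh lay nearest Kcng4, a potassium channel subunit (0.11), and Tesc (0.12), and Ina nearest Cpne6 (0.032) and Sult4a1 (0.043). Synm lay nearest Strn (0.024) and Fdps (0.036). Between members, Nefl and Nefm were the closest pair (0.12) and Vim and Nefh the farthest (3.16).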

How the data were processed

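RNA was measured by bulk RNA-seq in 3 sham and 3 SCI libraries of mouse spinal cord, after poly(A) selection and strand marking with dUTP, per the labels' protocols. The authors deposited 1 FPKM value for each gene and library, per the file headers. StringTie 1.3.4d, HISAT2 2.0.4 and cutadapt 1.9 are listed in the submitters' processing notes beside UMI-tools, edgeR and DESeq2, as is the build mm9, with no role given. Gene positions in the files fit GRCm38 instead: position and strand were those of GENCODE M21 for 91.6% of 36502 common identifiers. FPKM summed to between 716215 and 734791 per library and hold no depth.

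Here limma 3.58.1 (R 4.3.3), with a mean-variance trend, was run on log2(FPKM + 1) with group as its term, for the 17435 genes that reached 1 FPKM in 3 or more of the 6 libraries. Benjamini-Hochberg adjustment ran over all of them. Ratios and values against reference genes were tested with exact permutation. The rule for named genes took the members, Prph, Des, the lamins, the 2 most changed and the 2 most abundant genes of each list, and the 2 nearest profiles of each member. From it the text gives those that bear on filaments, and other genes it names were chosen after their values were seen. The values of 1 gene the rule took are not reported here. The members and lists were chosen with earlier results of these data known. The alternatives were another pseudocount, no filter, other scalings, a replicate block and leaving out libraries.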

Additional observations from a re-analysis of the deposited data

How the results depend on the processing

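Under 13 alternatives (pseudocount 0.1, no filter on low values, median-ratio scaling, quantile normalization, rescaling without mitochondrial and haemoglobin genes, a replicate block, leaving out each library, and leaving out sham replicate 2 and SCI replicate 3 together) Gfap, Vim, Nes, Nefl, Nefm, Nefh and Ina kept their direction and their call. Their log2 changes ranged from 2.01 to 2.27 for Gfap, 4.03 to 4.36 for Vim, 2.80 to 3.20 for Nes, −1.85 to −1.45 for Nefl, −1.88 to −1.39 for Nefm, −2.25 to −1.77 for Nefh and −1.52 to −1.12 for Ina. With each library left out in turn, the change of Synm ran from −0.21 to 0.045 and that of the Nefm to Nefl ratio from −0.13 to 0.057. The positive values, without SCI replicate 2, were opposite in sign to those with all libraries, and the cause was not tested. Genes past the threshold numbered from 7933 to 10745 under these alternatives, against 10024 of the 17435 tested. With no filter on low values 9628 passed, but of a larger set of 33526 genes. Of those called, 5271 were higher and 4940 lower under median-ratio scaling and 4381 and 6364 under quantile normalization, against 4653 and 5371. With the replicate block 9443 passed, and no member lost or gained a call. Same-numbered libraries did not deviate together (r of −0.0076, −0.039 and 0.022 for numbers 1, 2 and 3), and only the libraries numbered 3 correlated best with their own number.

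Of 122 other genes followed, 31 changed call or direction in at least 1 alternative. The reversed ones were small and not called. Nfix was at 0.022 under median-ratio scaling and Sync at −0.058 under quantile normalization. With each library left out in turn, Sync ran from −0.12 to 0.19, Synpo2 from −0.11 to 0.23, Bag1 from −0.0020 to 0.085, Strn from −0.21 to 0.010 and Fdps from −0.28 to 0.017. Without sham replicate 2 and SCI replicate 3 together Sync was at −0.025 and Synpo2 at −0.10. FPKM give no depth, so low genes such as Aurkb in sham carry an unknown counting error.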
